A study of Homo sapiens with 12 samples.

Results

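The genes described here encode the proteins of the cytosolic ribosome. They were chosen by symbol, as every listed gene whose name begins with RPL or RPS and a digit, together with RPLP0, RPLP1, RPLP2 and RPSA, leaving out the RPS6K kinases, pseudogenes, RPS4X, the RPS4Y symbols and hyphenated names. This gave 82 genes of the 12360 listed for either cell line, and all 82 were listed in both lines. Of the 82, 46 encode proteins of the large subunit and 30 proteins of the small subunit. Another 5 are paralogs, copies of a standard ribosomal protein gene (RPL7L1, RPL22L1, RPL26L1, RPL36AL and RPS27L). The remaining gene, RPS19BP1, was taken up by its letters alone and encodes a binding partner of RPS19. The samples were established human cancer lines of wild-type genotype per the labels, 23132/87 from a gastric adenocarcinoma and SW48 from a colorectal adenocarcinoma. The cultures were exposed for 48 h to myricone C (MyrC) at 10 µM, a neolignan of Myristica fragrans by the series title, or to the vehicle DMSO at 0.1%. Each of the 4 groups had 3 biological replicates, which gave 12 stranded mRNA libraries in all. The question was how MyrC changed the transcript levels of the ribosomal protein genes in each line, and whether the lines differed in this.

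A ribosome joins a small subunit, which reads the mRNA, to a large subunit, which forms the peptide bond, and each standard ribosomal protein is needed in about equal number. Their mRNAs are among the most abundant of a dividing cell and carry at the 5′ end a terminal oligopyrimidine (TOP) tract, a C at the cap followed by a run of C and T. Through this tract the kinase mTOR and the RNA-binding protein LARP1 set together how far these mRNAs are translated and stored.

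The start sites below are shown because the tract marks the standard genes and is absent from the annotated start of most paralogs that changed. Each line holds 30 bases of the transcribed strand, 15 before the start annotated by RefSeq on GRCh38.p14 and 15 from the start on, with the run of C and T that opens with C at the first transcribed base in capitals. The bases from the start on belong to the first exon, and RPL10 and RPL26L1 have further annotated starts that are not shown.
RPS26: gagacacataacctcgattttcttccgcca
RPL10: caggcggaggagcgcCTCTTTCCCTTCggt
RPL12: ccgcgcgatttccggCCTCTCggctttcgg
RPS9: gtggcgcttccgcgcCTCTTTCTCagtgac
RPS27L: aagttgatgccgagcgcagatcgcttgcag
RPS27: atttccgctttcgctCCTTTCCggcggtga
RPL26L1: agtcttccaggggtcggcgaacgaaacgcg
RPL26: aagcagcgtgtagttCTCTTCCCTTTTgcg
RPL22L1: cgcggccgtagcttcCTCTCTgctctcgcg
RPL22: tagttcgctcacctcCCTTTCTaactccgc
RPL7L1: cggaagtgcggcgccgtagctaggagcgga
In the order given, the windows lie at chr12:56041903-56041932 (plus strand), chrX:154398362-154398391 (plus), chr9:127451392-127451421 (minus), chr19:54200843-54200872 (plus), chr15:63157463-63157492 (minus), chr1:153990747-153990776 (plus), chr5:172958714-172958743 (plus), chr17:8383179-8383208 (minus), chr3:170870181-170870210 (minus), chr1:6199581-6199610 (minus) and chr6:42879601-42879630 (plus). The motif searched was a C at the first transcribed base followed by at least 4 bases that are each C or T, on the transcribed strand alone and at any annotated start of a gene. RefSeq starts were at hand for 66 of the 82 genes, and 47 of them (71.2%) held the motif, against 1404 of all 27305 genes in the table (5.14%). Among standard ribosomal protein genes it was found in 46 of 61 (75.4%), and among the paralogs in 1 of 5, RPL22L1. The annotated start of RPS26 did not open with it, which says only that these letters are not at that position in this annotation. Of the genes described below, the motif was found in 4 of the 6 that rose and 0 of the 4 that fell in 23132/87, and in 5 of the 8 with an entry that fell in SW48. It was found in 43 of 56 genes not called in 23132/87 (76.8%) and in 42 of 58 not called in SW48 (72.4%). Of the 4 that fell in 23132/87, 3 were paralogs, the class that held the motif in 1 of 5.

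Values are the authors' deposited signal per gene, whose scale resembles FPKM or TPM. The unit is not given in the sources used here, and depth is unknown. The listed values of a 23132/87 library summed to 464037 to 506021 in MyrC cells, against 518943 to 525838 in vehicle cells. In SW48 they summed to 477551 to 499845 in MyrC cells, against 509551 to 536594 in vehicle cells. Every MyrC sum thus lay below every vehicle sum of its line, and the part of this in the results was not tested. Ribosomal protein genes stood near the top of the listed values, with 48 of the 82 among the 100 highest listed genes of 23132/87 vehicle cells and 67 of the 82 among the 100 highest of SW48 vehicle cells. All 5 epithelial markers checked were listed in both lines, and under MyrC 4 fell and 1 rose in 23132/87 and 4 rose in SW48. Of 9 gastric markers 2 were listed in 23132/87 and none in SW48, and of 9 colorectal markers 4 were listed in each line. Of 12 leukocyte and mesenchymal markers, CD68 (log2 change 1.22 under MyrC, called) and COL1A1 (-0.17, not called) were listed in 23132/87 and none in SW48. The part of these marker changes in the results was not tested. A signal is a share of its library, so that fewer transcripts per cell and more transcripts of other genes cannot be told apart here. One library per line stood apart over the whole group of genes, the 23132/87 MyrC replicate 1, whose ribosomal protein genes lay a median of -0.23 log2 units from their group means, and the SW48 MyrC replicate 3, at 0.15. In the SW48 MyrC replicate 1, 7SL and small nuclear RNA genes took 5.25% of the listed signal, against 0.0477% to 0.201% in the other SW48 libraries. Mitochondrial pseudogenes took 13.5% to 15.3% of it in SW48 MyrC libraries, against 16.6% to 18.1% in SW48 vehicle libraries. In 23132/87 these ranges overlapped (13.5% to 14.4%, against 13.4% to 15.6%).

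Summed over the 82 genes, the share of all listed signal was 13.3%, 15.5% and 16.2% in 23132/87 MyrC cells, against 13.5%, 12.9% and 12.6% in vehicle cells. In SW48 it was 16.4%, 16.6% and 19.0% in MyrC cells, against 18.6%, 19.1% and 18.2% in vehicle cells. The ranges of MyrC and vehicle libraries overlapped in both lines, with the 23132/87 MyrC replicate 1 and the SW48 MyrC replicate 3 each inside the range of the vehicle libraries. The ratio of the large-subunit sum to the small-subunit sum was 1.38 ± 0.03 in MyrC cells and 1.39 ± 0.01 in vehicle cells of 23132/87, and 1.32 ± 0.02 in MyrC cells and 1.29 ± 0.01 in vehicle cells of SW48 (SD, n = 3 each). Across the 82 genes the order of levels was nearly the same under MyrC and vehicle (Spearman's rho 0.978 in 23132/87 and 0.982 in SW48, across genes that share their libraries).

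**Figure D1:**
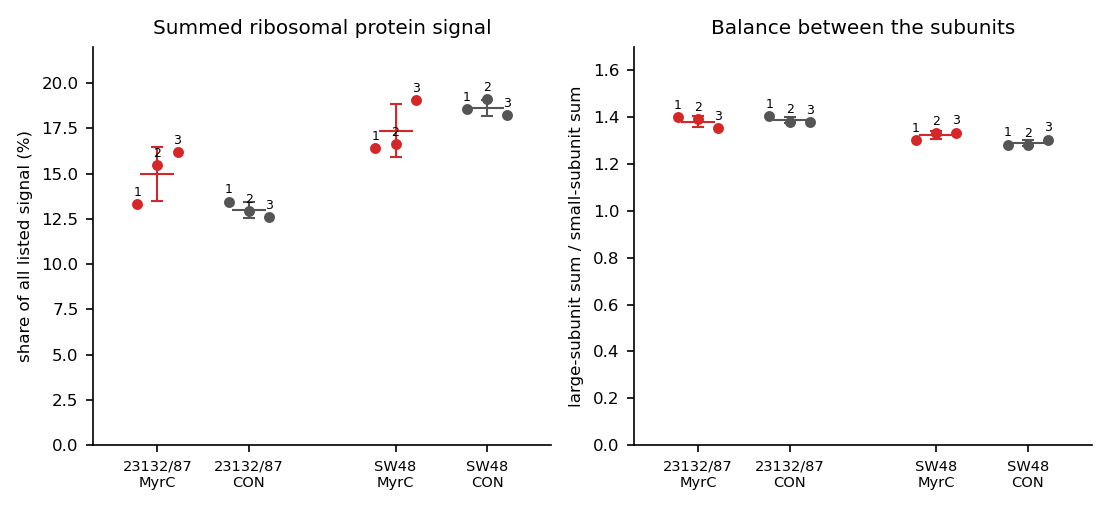
Left, share of each library's listed signal (%) taken by the 82 genes; right, ratio of the summed large-subunit to the summed small-subunit signal (no unit). Points are single libraries labelled by replicate number, bars are means and SDs (n = 3). The 23132/87 MyrC replicate 1 at 13.3% lies among the vehicle libraries and the SW48 MyrC replicate 3 at 19.0% lies among the vehicle libraries (CON) of its line.

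In 23132/87 cells most ribosomal protein genes were not called, while RPS26 fell to 0.523 times its vehicle level and RPL10 and RPL12 had the largest rises. A gene was called where limma's adjusted p, taken over all genes of the line's table, was under 0.05. By this rule 6 of the 82 genes rose (7.32%) and 4 fell (4.88%), where 23.3% of all 11070 genes tested rose and 23.2% fell. As deposited, the share of ribosomal protein genes called was below that of all genes in both directions, but the reading for rises turned with single settings given below. The median log2 change was 0.10, against 0.01 over all genes, and 56 of the 82 values (68.3%) were above 0, against 51.3% of all genes. The 3 MyrC libraries lay above all 3 vehicle libraries for 14 genes (17.1%, against 28.9% of all genes) and below them for 5 genes (6.10%, against 27.9%). Of 46 large-subunit genes 5 rose and 0 fell at this threshold (limma, with 6 higher and 0 lower at an unadjusted p under 0.05, where the share of all genes was not taken). Of 30 small-subunit genes 1 rose and 1 fell, and of the 5 paralogs 3 fell. The number that rose depended on single libraries. It was 35 without MyrC replicate 1 (42.7%, against 20.8% of all genes). It was 1 without MyrC replicate 2, MyrC replicate 3 or vehicle replicate 2 (1.22%, against 18.1% to 20.5%). It was 2 without vehicle replicate 1 or 3 (2.44%, against 19.2% and 22%). The number that fell was 2 without vehicle replicate 2 (2.44%, against 17.6%). The split of 6 rises and 4 falls was 29 and 3 after quantile normalization (35.4% rose, against 22.4% of all genes), 25 and 2 with the total taken without mitochondrial pseudogenes, 7SL and small nuclear RNA genes (30.5%, against 26.9%), and 26 and 2 with the total taken without the ribosomal protein genes (31.7%, against 30.4%). The share that fell stayed below that of all genes in every setting run. One of these, the scaling to the sum over the 82 genes, centres these genes by construction.

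RPS26, a small-subunit protein at the exit of the mRNA channel, had the largest fall of the 82. Its signal was 109, 124 and 130.0 in 23132/87 MyrC cells, against 241, 228 and 226 in vehicle cells. All 3 MyrC libraries lay far below the vehicle libraries, and the log2 change was -0.94 ± 0.10 (SE, n = 3 per group, adjusted p = 7.11e-05 by limma). This call held in all 18 alternatives run for this line, with log2 values from -1.05 to -0.77. In SW48 the signal of RPS26 was 289.6, 278 and 299 in MyrC cells, against 354, 347 and 361 in vehicle cells. The groups were apart there too, but by less, with a log2 change of -0.29 ± 0.10 (adjusted p = 0.0455 by limma). The SW48 call was lost without any 1 of the 6 libraries (adjusted p 0.0535 to 0.139, log2 values -0.32 to -0.27), and with each of the 5 other scalings (-0.24 to -0.10).

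RPS26 has processed pseudogenes, copies of its mRNA elsewhere in the genome, among which reads may be divided. Of 4 listed, RPS26P6 had 32.0, 30.5 and 34.5 in 23132/87 MyrC cells, against 64.7, 65.3 and 50.6 in vehicle cells, a log2 change of -0.87 ± 0.12 (adjusted p = 0.000289 by limma). RPS26P8 changed by -0.81 ± 0.16 (adjusted p = 0.00247 by limma). The summed signal of the 4 pseudogenes was 57.2% of that of RPS26 in MyrC cells and 49.8% in vehicle cells of this line, and 54.1% in MyrC cells and 59.2% in vehicle cells of SW48. In SW48 RPS26P8, RPS26P15 and RPS26P6 fell, by 0.50, 0.47 and 0.38 on the log2 scale. The SW48 call of RPS26P15 was lost without any 1 library other than MyrC replicate 3 (-0.52 to -0.33), and that of RPS26P6 without MyrC replicate 2, vehicle replicate 1 or vehicle replicate 3 (-0.37 to -0.33). How reads were assigned between the gene and these copies is not given in the sources used here, so the level of RPS26 is uncertain. RPS26P15 and RPS26P47 were not called in 23132/87, at -0.54 ± 0.24 and 0.31 ± 0.18, and RPS26P47 was not called in SW48, at -0.23 ± 0.17. TSR2, the escort protein that delivers RPS26 to the forming ribosome, fell in both lines. TSR2 had 6.57, 7.35 and 7.56 in 23132/87 MyrC cells, against 9.47, 10.3 and 9.34 in vehicle cells (log2 change -0.39 ± 0.12, adjusted p = 0.0187 by limma). In SW48 it had 8.20, 7.59 and 9.11 in MyrC cells, against 11.7, 11.2 and 11.2 in vehicle cells (log2 change -0.41 ± 0.13, adjusted p = 0.0321 by limma). The groups were apart in both lines, and the call of TSR2 was lost in 23132/87 without vehicle replicate 2 (-0.35) and in SW48 without any 1 library other than MyrC replicate 3 (-0.42 to -0.36). It was lost in both lines under both reduced totals, without mitochondrial pseudogenes, 7SL and small nuclear RNA genes (-0.32 in 23132/87 and -0.35 in SW48) or without the ribosomal protein genes (-0.29 and -0.35).

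The genes that rose in 23132/87 were RPL10, RPL12, RPL10A, RPL28, RPS13 and RPL4. RPL10 is a large-subunit protein that joins late in assembly near the peptidyl transferase centre. Its signal was 609, 679 and 636 in MyrC cells, against 445, 452 and 439 in vehicle cells. Every MyrC library lay above every vehicle library, with a log2 change of 0.52 ± 0.10 (SE, adjusted p = 0.00211 by limma), and the call held in all 18 alternatives (log2 0.41 to 0.66). RPL12, at the base of the stalk that recruits translation factors, had 1260.3, 1738 and 1643 in MyrC cells, against 1099, 1060.5 and 1105 in vehicle cells. The groups were apart, although MyrC replicate 1 lay much nearer the vehicle libraries, with a log2 change of 0.49 ± 0.14 (adjusted p = 0.0183 by limma). The call of RPL12 was lost without any 1 library other than MyrC replicate 1 (log2 0.40 to 0.50, adjusted p 0.0504 to 0.0825). RPL10A, the protein of the L1 stalk beside the exit site, had 860.1, 1066 and 1012 in MyrC cells, against 799.7, 743 and 695 in vehicle cells (log2 change 0.39 ± 0.12, adjusted p = 0.0273). RPL28, a large-subunit protein, had 709, 789 and 882 in MyrC cells, against 676, 626 and 572 in vehicle cells (0.34 ± 0.12, adjusted p = 0.0437). The groups were apart for both, with MyrC replicate 1 the lowest MyrC library. The small-subunit protein RPS13 had 670.0, 704 and 742 in MyrC cells, against 551, 558 and 604 in vehicle cells (0.30 ± 0.10, adjusted p = 0.0366). RPL4, which lines the exit tunnel, had 608, 673 and 621 in MyrC cells, against 522, 516 and 531 in vehicle cells (0.28 ± 0.10, adjusted p = 0.0457). These groups were apart as well, and the 4 smaller calls rested on single libraries. Those of RPL28 and RPL4 were lost without any 1 library other than MyrC replicate 1 (RPL28 log2 0.26 to 0.40, RPL4 0.23 to 0.29), that of RPL10A without MyrC replicate 2 or 3 or vehicle replicate 2 or 3 (0.32 to 0.39), and that of RPS13 without MyrC replicate 2 or 3 or vehicle replicate 1 or 2 (0.27 to 0.31). Those of RPL28, RPS13 and RPL4 were also lost after median centring (0.31, 0.27 and 0.24) and with signals scaled to the sum over the 82 genes (0.23, 0.19 and 0.16). In SW48 none of the 6 was called, with log2 changes from -0.07 for RPL10A to 0.11 for RPL10.

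**Figure D2:**
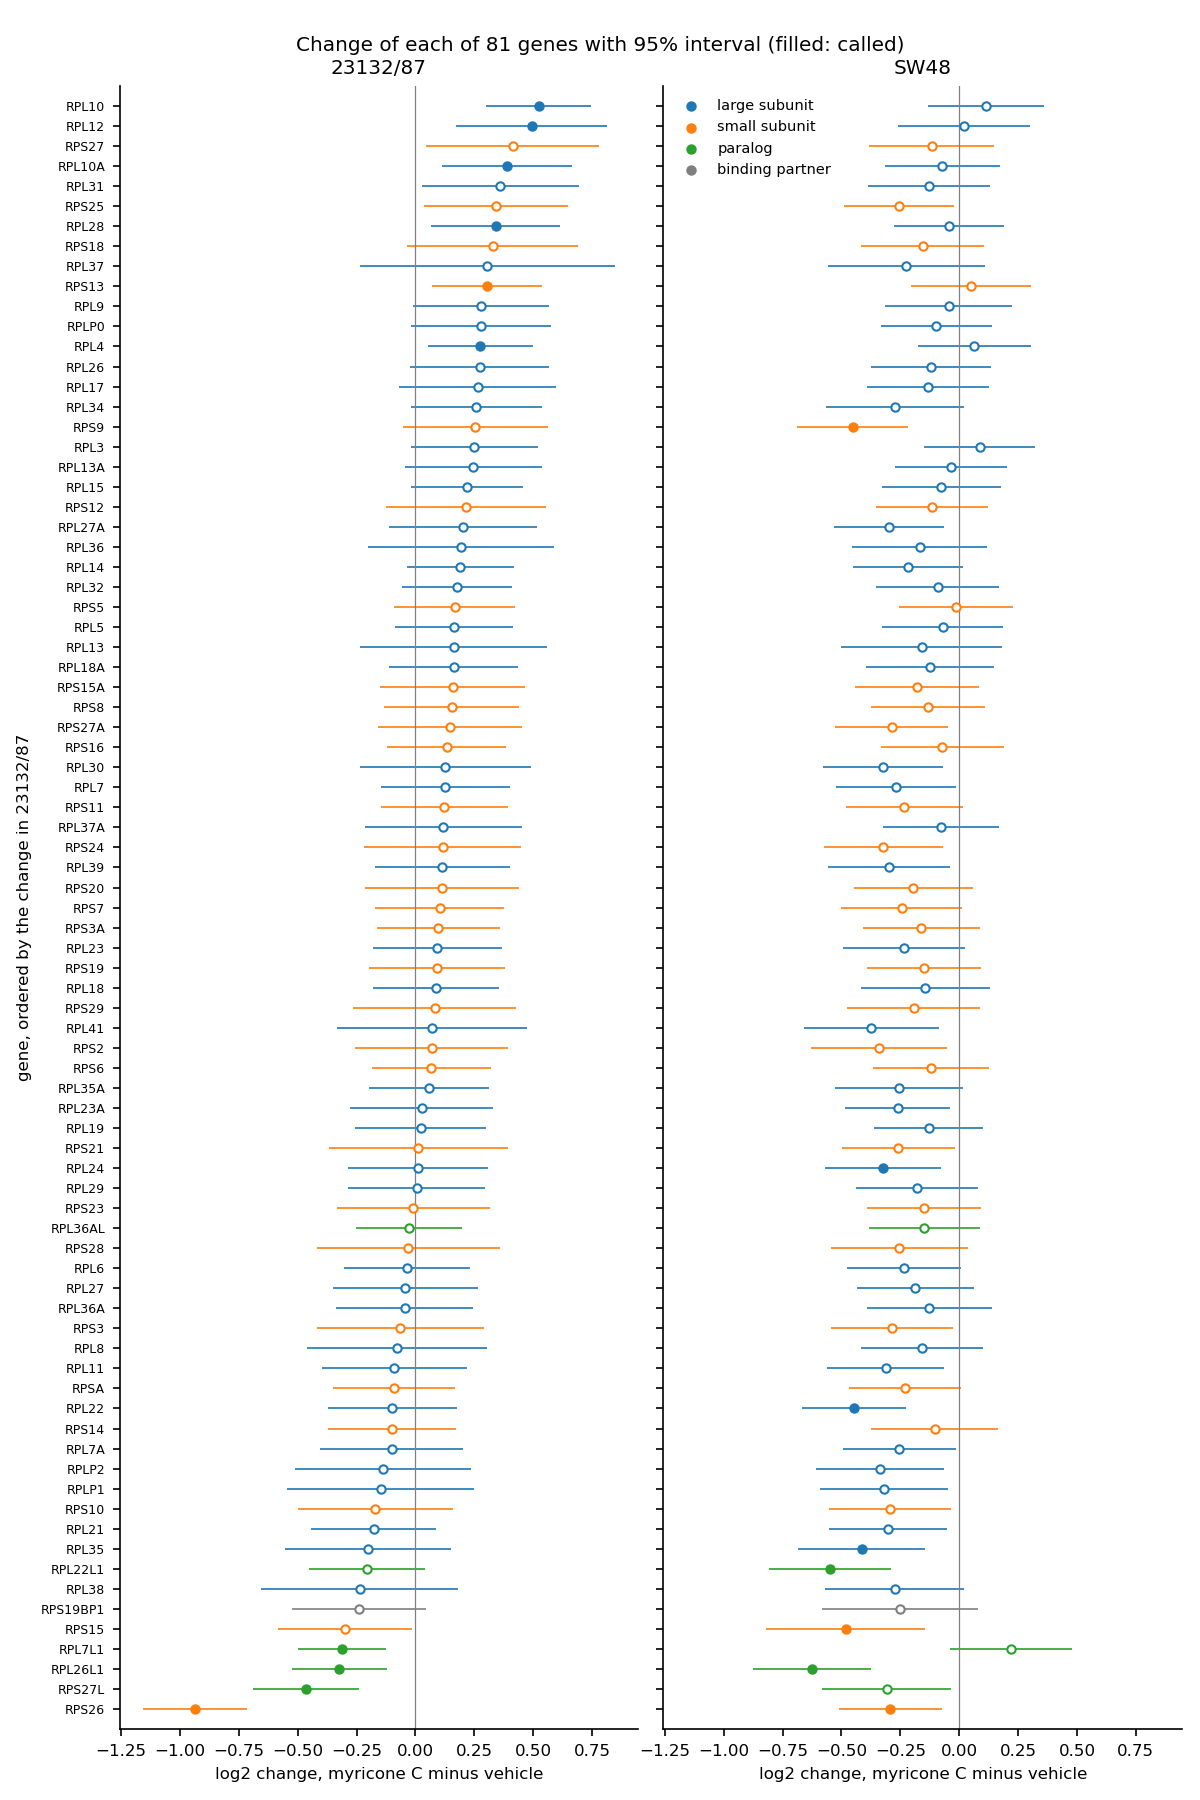
Log2 change, MyrC minus vehicle, of 81 of the 82 genes (points) with limma's 95% interval (lines) in 23132/87 (left) and SW48 (right), in the order of the 23132/87 change and coloured by class; filled points were called. In 23132/87 RPS26 at -0.94 lies apart at the lower end and the 5 paralogs lie below 0. In SW48 most values lie below 0.

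In SW48 cells the ribosomal protein genes lay mostly below 0, and 9 of 82 fell (11.0%) while 0 rose. Over all 11554 genes tested 19.2% fell and 10.1% rose, so that as deposited the share that fell was below that of all genes. At an unadjusted p under 0.05 by limma the count was 28 lower and 0 higher. The share of all genes at that threshold was not taken, so this count has no background to be read against. The median log2 change was -0.19, against -0.08 over all genes, and 76 of the 82 values (92.7%) were below 0, against 58.7% of all genes. The MyrC libraries lay below all vehicle libraries for 35 genes (42.7%, against 28.4% of all genes) and above them for 1 gene, RPL3 (1.22%, against 16.8%). The genes that fell were 3 large-subunit genes (RPL22, RPL35 and RPL24), 4 small-subunit genes (among them RPS15, RPS9 and RPS26) and the paralogs RPL26L1 and RPL22L1. The comparison with all genes turned without MyrC replicate 3, where 28 fell (34.1%, against 15.7% of all genes). The number was 5 without vehicle replicate 2 (6.10%, against 15.2%) and 4 without any of the other libraries (4.88%, against 12.4% to 20.1%). It was 18 with genes kept at a signal of at least 10 in at least 3 libraries, still below the share of all genes (22%, against 26%). The split of 0 rises and 9 falls was 1 and 14 after quantile normalization (17.1% fell, against 15.3% of all genes, and 1.22% rose, against 13.1%). It was 0 and 4 with the total taken without the ribosomal protein genes (4.88% fell, against 15.4%, and 0% rose, against 11.9%). With signals scaled to the sum over the 82 genes it was 3 and 2 (3.66% rose, against 17.4%, and 2.44% fell, against 9.56%). That scaling centres the 82 genes by construction.

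RPL22 and RPS9 fell in SW48 with groups well apart. RPL22, a large-subunit protein, had 189, 199.7 and 208 in SW48 MyrC cells, against 265, 272 and 279 in vehicle cells, a log2 change of -0.45 ± 0.10 (SE, adjusted p = 0.00689 by limma). RPS9, an early-binding protein of the small-subunit body, had 759, 752 and 851 in MyrC cells, against 1081, 1120.3 and 1026 in vehicle cells, a log2 change of -0.45 ± 0.11 (adjusted p = 0.00933 by limma). Every MyrC library lay below every vehicle library for both. Both calls held in 18 of 19 alternatives and were lost with signals scaled to the sum over the 82 genes (-0.25 for RPL22 and -0.26 for RPS9). RPS15, a small-subunit head protein, had 551, 526 and 799 in MyrC cells, against 889.9, 886 and 802 in vehicle cells (log2 change -0.48 ± 0.15, adjusted p = 0.0355 by limma). MyrC replicate 3 nearly reached the lowest vehicle library. RPL35, at the end of the exit tunnel, had 889.7, 929.8 and 1151 in MyrC cells, against 1287, 1300.3 and 1349 in vehicle cells (log2 change -0.41 ± 0.12, adjusted p = 0.0256). RPL24, part of a bridge between the subunits, had 806, 822 and 967 in MyrC cells, against 1069, 1059.8 and 1113 in vehicle cells (-0.33 ± 0.11, adjusted p = 0.0489). For both the groups were apart and MyrC replicate 3 was the highest MyrC library. The calls of RPS15, RPL35 and RPL24 were each lost without any 1 library other than MyrC replicate 3 (log2 values -0.53 to -0.37, -0.43 to -0.34 and -0.34 to -0.28 in that order). These calls were also lost with signals scaled to the sum over the 82 genes (-0.29, -0.22 and -0.13). The same held with the total taken without the ribosomal protein genes (-0.42, -0.35 and -0.26). That of RPL24 was lost as well after median centring (-0.28) and with the total taken without mitochondrial pseudogenes, 7SL and small nuclear RNA genes (-0.25).

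The paralogs are described with the standard gene each resembles. RPL26L1, the copy of RPL26, fell in both lines. It had 28.95, 27.4 and 29.5 in 23132/87 MyrC cells, against 34.8, 36.8 and 36.4 in vehicle cells (log2 change -0.32 ± 0.09, adjusted p = 0.0152 by limma). In SW48 it had 22.5, 20.5 and 22.3 in MyrC cells, against 36.6, 32.5 and 33.4 in vehicle cells (log2 change -0.63 ± 0.11, adjusted p = 0.00229 by limma), the largest fall of the 82 in that line. The groups did not overlap in either line. The SW48 call held in all 19 alternatives, while the 23132/87 call was lost without MyrC replicate 2 (-0.29) or vehicle replicate 2 (-0.31), and with the total taken without mitochondrial pseudogenes, 7SL and small nuclear RNA genes (-0.24, adjusted p = 0.0837) or without the ribosomal protein genes (-0.21, adjusted p = 0.107). RPL26 itself changed by 0.27 ± 0.13 in 23132/87 (adjusted p = 0.115) and by -0.12 ± 0.12 in SW48 (adjusted p = 0.465).

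RPS27L, the copy of RPS27 and a known p53 target in human cells, had 122, 141 and 127 in 23132/87 MyrC cells, against 197, 169 and 175 in vehicle cells. The groups were apart, with a log2 change of -0.47 ± 0.10 (SE, adjusted p = 0.00425 by limma), and the call held in all 18 alternatives. In SW48 it had 78.8, 75.9 and 79.3 in MyrC cells, against 99.0, 82.2 and 111 in vehicle cells (log2 change -0.31 ± 0.13, adjusted p = 0.0862 by limma). The value of RPS27 was 0.41 ± 0.17 in 23132/87 (adjusted p = 0.0641) and -0.12 ± 0.12 in SW48 (adjusted p = 0.499). Across the 18 alternatives for 23132/87 the RPS27 value ran from 0.30 to 0.57 (adjusted p 0.000944 to 0.204 by limma). RPS27 was thus called higher there in some settings and not in others.

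RPL22L1, the copy of RPL22, had 320.0, 349.8 and 342 in SW48 MyrC cells, against 459.9, 457 and 573 in vehicle cells. The groups were apart, with a log2 change of -0.55 ± 0.12 (SE, adjusted p = 0.00567 by limma), so that copy and standard gene both fell in this line. The call of RPL22L1 held in all 19 alternatives. In 23132/87 the values were -0.21 ± 0.11 for RPL22L1 (adjusted p = 0.152) and -0.10 ± 0.12 for RPL22 (adjusted p = 0.537). RPL7L1, the copy of RPL7 found in early precursors of the large subunit, had 49.99, 51.0 and 51.0 in 23132/87 MyrC cells, against 62.5, 63.6 and 63.1 in vehicle cells (log2 change -0.31 ± 0.08, adjusted p = 0.0128 by limma). The replicates of each group agreed within about 1 unit, and the call was lost without vehicle replicate 2 (-0.30, adjusted p = 0.0513). It was also lost after quantile normalization (-0.20, adjusted p = 0.0838) and with the total taken without mitochondrial pseudogenes, 7SL and small nuclear RNA genes (-0.23, adjusted p = 0.0704) or without the ribosomal protein genes (-0.19, adjusted p = 0.0973). In SW48 RPL7L1 had 55.8, 66.8 and 66.4 in MyrC cells, against 55.0, 49.4 and 57.3 in vehicle cells, with overlapping groups (log2 change 0.22 ± 0.12, adjusted p = 0.186 by limma). RPL7 had values of 0.13 ± 0.12 in 23132/87 and -0.27 ± 0.12 in SW48, with neither called. RPL36AL, the copy of RPL36A, was called in neither line, at -0.03 ± 0.10 in 23132/87 and -0.15 ± 0.11 in SW48, nor was RPL36A, at -0.05 ± 0.13 and -0.13 ± 0.12.

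**Figure D3:**
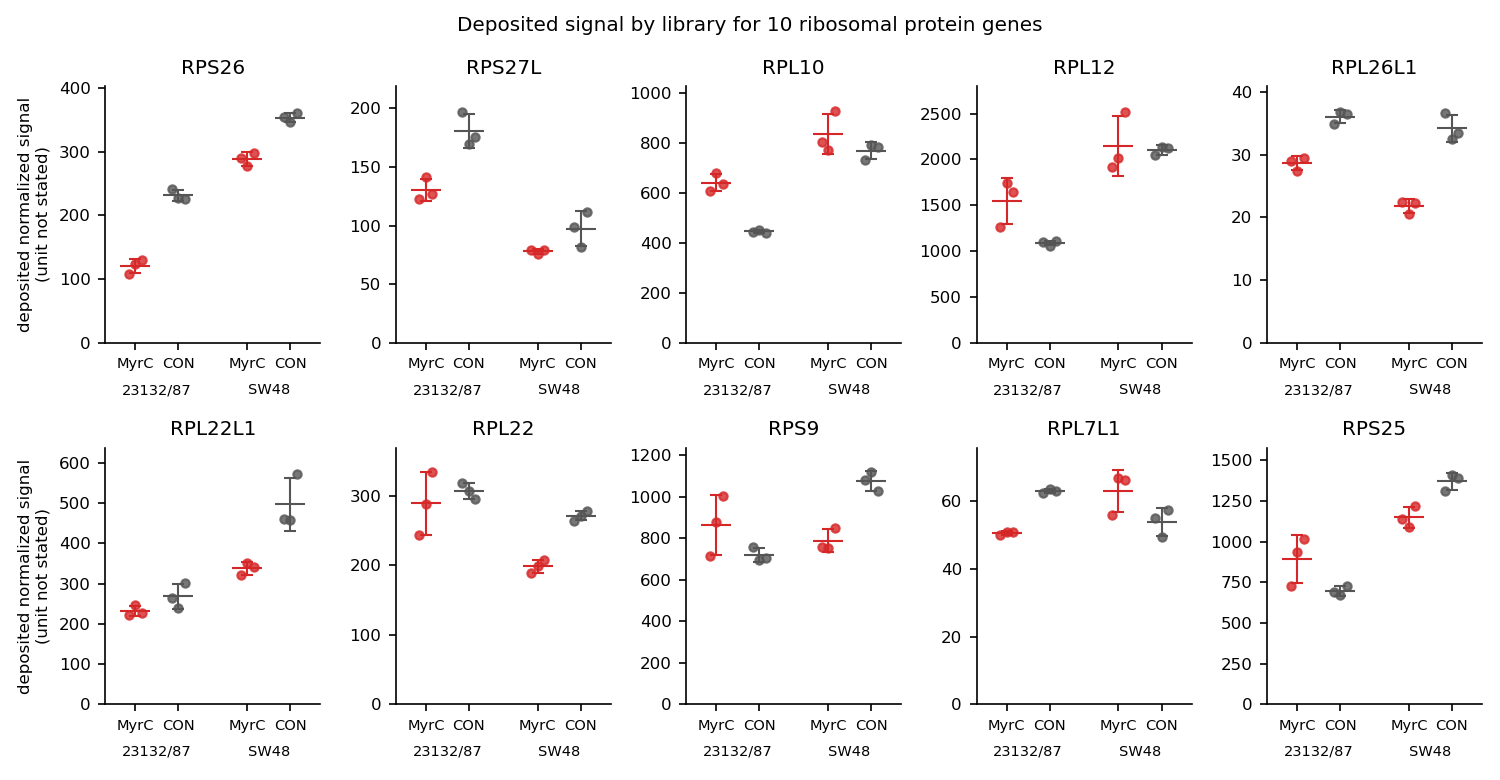
Deposited signal (unit not stated, axes from 0) of 10 genes in each library, with MyrC libraries in red left of vehicle libraries (CON) in grey for each line; bars are means and SDs (n = 3). RPS26 in 23132/87 lies at 109 to 130.0 under MyrC against 226 to 241 under vehicle, and RPL7L1 under MyrC lies below vehicle in 23132/87 and overlaps it in SW48.

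None of the stalk, 5S particle and other single proteins that follow was called in either line as deposited. Several were called in some alternatives, such as RPLP0 in 23132/87 (lowest adjusted p 0.00781 by limma) and RPLP2 in SW48 (0.0146). The stalk proteins, which bring translation factors to the ribosome, gave log2 changes in 23132/87 of 0.28 ± 0.13 for RPLP0, -0.15 ± 0.18 for RPLP1 and -0.14 ± 0.17 for RPLP2 (SE). In SW48 they gave -0.10 ± 0.11 for RPLP0, -0.32 ± 0.12 for RPLP1 and -0.34 ± 0.12 for RPLP2 (lowest adjusted p of the 6 values 0.0617). RPL5 and RPL11, which form with 5S rRNA the particle that can bind the p53 ubiquitin ligase MDM2, gave 0.16 ± 0.11 and -0.09 ± 0.14 in 23132/87 and -0.07 ± 0.12 and -0.31 ± 0.11 in SW48. RPL11 in SW48 had 908, 938 and 1102 in MyrC cells, against 1176, 1227 and 1247 in vehicle cells, with groups apart and an adjusted p of 0.0589 by limma. RPS6, the classic substrate of the S6 kinases, gave 0.07 ± 0.11 in 23132/87 and -0.12 ± 0.11 in SW48. RPSA, which also serves as a laminin receptor, gave -0.09 ± 0.12 in 23132/87 and -0.23 ± 0.11 in SW48. RPS3, at the mRNA entry, gave -0.06 ± 0.16 in 23132/87 and -0.28 ± 0.12 in SW48. RPS27A, made as a fusion with ubiquitin, gave 0.15 ± 0.14 in 23132/87 and -0.29 ± 0.11 in SW48 (adjusted p = 0.0683). RPL3, at the peptidyl transferase centre, gave 0.25 ± 0.12 in 23132/87 and 0.09 ± 0.11 in SW48. RPS19BP1, the binding partner of RPS19, gave -0.24 ± 0.13 in 23132/87 and -0.25 ± 0.15 in SW48. FAU and RACK1, ribosomal proteins with other names, were called in neither line.

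The response of 4 genes differed between the lines by the test of the difference itself, the SW48 change minus the 23132/87 change over 10252 genes listed in both tables. It was higher in SW48 for RPS26 and RPL7L1 and lower in SW48 for RPS9 and RPS25, which is 2 of 82 genes in each direction, where 5.34% of all genes were called higher in SW48 and 7.43% lower. For RPS26 the difference was 0.64 ± 0.13 (SE, adjusted p = 0.00568 by limma), as the fall was larger in 23132/87. For RPL7L1 it was 0.53 ± 0.14 (adjusted p = 0.0207), with the 23132/87 libraries lower under MyrC and no call in SW48. For RPS9 it was -0.71 ± 0.17 (adjusted p = 0.0147). RPS9 had 715, 877 and 1004 in 23132/87 MyrC cells, against 758, 694 and 705 in vehicle cells, where the groups overlapped. For RPS25, a small-subunit protein used by some viral internal ribosome entry sites, the difference was -0.60 ± 0.17 (adjusted p = 0.0303). RPS25 had 1139.6, 1089.6 and 1218 in SW48 MyrC cells, against 1311, 1409 and 1392 in vehicle cells, and 729, 934 and 1013 in 23132/87 MyrC cells, against 688, 674 and 728 in vehicle cells. Its MyrC libraries lay below vehicle in SW48 and above vehicle in 23132/87, where MyrC replicate 1 nearly met vehicle replicate 3, while neither line alone was called (adjusted p = 0.0921 and 0.0642).

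The differences of RPS26 and RPS9 were called in all 23 alternatives. That of RPL7L1 was lost without 23132/87 vehicle replicate 2, SW48 MyrC replicate 2 or SW48 vehicle replicate 2 (0.47 to 0.52). With the replicate block it was lost as well, as was the difference of RPS25 (adjusted p = 0.0719 and 0.0675 by limma). That of RPS25 was lost without 7 of the 12 libraries, namely 23132/87 MyrC replicates 2 and 3, 23132/87 vehicle replicates 1 and 2, SW48 MyrC replicate 2 and SW48 vehicle replicates 2 and 3 (-0.59 to -0.50), after median centring (-0.52) and with signals scaled to the sum over the 82 genes (-0.29). Of the 82 differences 79 were below 0, with a median of -0.29, against -0.09 over all genes. The share called lower in SW48, 2.44% as deposited, turned from below to above that of all genes under several settings. The number was 30 without 23132/87 MyrC replicate 1 (36.6%, against 7.09% of all genes) and 6 without SW48 MyrC replicate 3 (7.32%, against 6.50%). It was 1 or 2 without any of the others (1.22% or 2.44%, against 4.54% to 8.08%). It was 21 after quantile normalization (25.6%, against 5.89%), 18 with the total taken without mitochondrial pseudogenes, 7SL and small nuclear RNA genes (22%, against 7.46%) and 10 with the total taken without the ribosomal protein genes (12.2%, against 9.14%). Across the 82 genes the changes in the lines had a Pearson's r of 0.49 and a Spearman's rho of 0.57, as a description over genes that share their libraries.

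**Figure D4:**
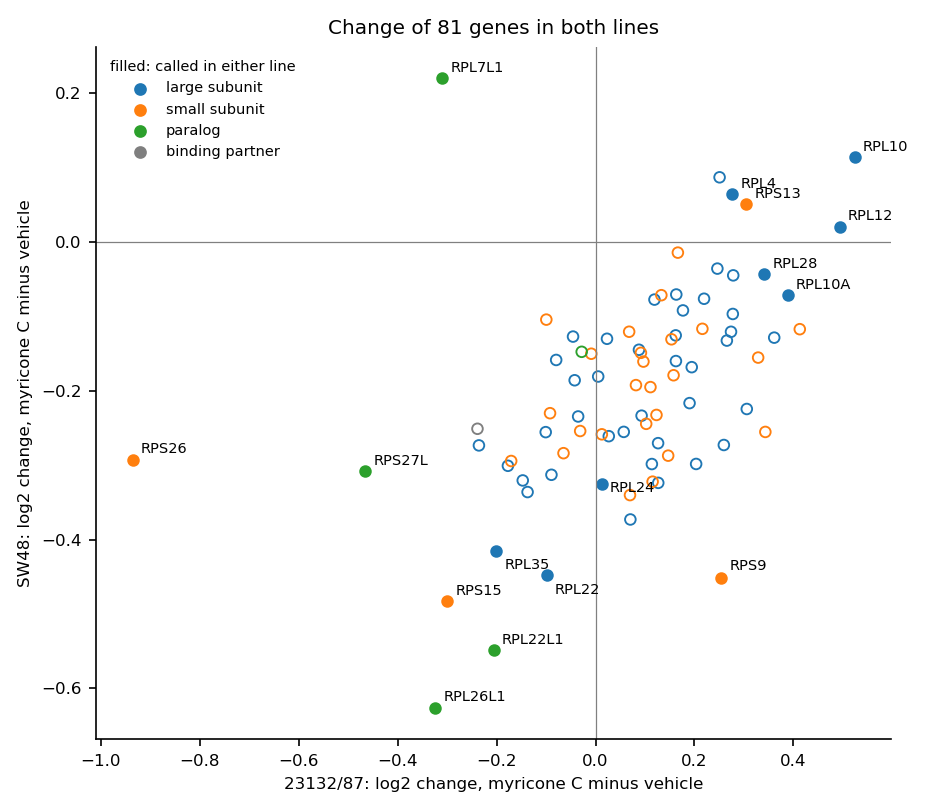
Log2 change (MyrC minus vehicle) of 81 of the 82 genes in 23132/87 (horizontal) against SW48 (vertical), coloured by class. Filled, named points were called in at least 1 line. RPS26 lies far left at -0.94 and -0.29, RPL26L1 lowest at -0.63 in SW48, and most open points lie right of 0 and below 0.

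Genes that act with the ribosomal proteins were taken from lists and are given by their counts, to be read against the 23.3% of all genes that rose and 23.2% that fell in 23132/87 and the 10.1% that rose and 19.2% that fell in SW48. Of 14 other genes with a TOP tract, mostly translation factors, 4 rose (28.6%) and 2 fell (14.3%) in 23132/87 (median log2 change 0.24), and 1 rose (7.14%) in SW48 (median -0.04). TPT1, which encodes the tumour protein TCTP, had 1592, 1646 and 1528 in 23132/87 MyrC cells, against 973, 898 and 1027 in vehicle cells, a log2 change of 0.72 ± 0.12 (adjusted p = 0.000888 by limma). EEF2, the factor that moves the ribosome along the mRNA, rose by 0.54 ± 0.13 in 23132/87 and by 0.36 ± 0.12 in SW48 (adjusted p = 0.00632 and 0.0434). The SW48 call of EEF2 was lost without any 1 library other than MyrC replicate 1 (0.27 to 0.42). NAP1L1, a histone chaperone, fell by 0.57 on the log2 scale in 23132/87. Of 11 genes that control TOP mRNAs, among them mTOR subunits and inhibitors, 5 rose (45.5%) and 2 fell (18.2%) in 23132/87 (median 0.22) and 6 rose (54.5%) and 1 fell (9.09%) in SW48 (median 0.48). The mTOR inhibitors SESN2 and DDIT4 rose by 2.34 and 2.20 in 23132/87 and by 2.06 and 4.75 in SW48. LARP1, which holds TOP mRNAs, rose by 0.33 ± 0.09 in 23132/87 and by 0.48 ± 0.12 in SW48. Its 23132/87 call was lost with signals scaled to the sum over the 82 genes (0.22, adjusted p = 0.298).

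Of 9 chaperones and escorts of single ribosomal proteins, 3 fell (33.3%) and 0 rose in 23132/87 (GRWD1, NAP1L1 and TSR2, with a median of -0.17) and 1 fell (11.1%) and 0 rose in SW48 (TSR2, with a median of -0.05). Of 4 genes of the p53 and MDM2 loop that free RPL5 and RPL11 can act on, 4 rose in 23132/87 (median 0.78) and 3 rose in SW48 (median 0.49), with the cell cycle inhibitor CDKN1A at 1.59 ± 0.16 in 23132/87 and 1.11 ± 0.32 in SW48. MDM4, a partner of MDM2, rose by 0.83 ± 0.14 in 23132/87, and MDM2 rose by 0.59 ± 0.17 in SW48. Calls in SW48 rested on single libraries, with that of CDKN1A lost without MyrC replicate 2 (0.98) and that of MDM2 without MyrC replicate 2 or vehicle replicate 2 or 3 (0.44 to 0.63). The fall of GRWD1 in 23132/87 was lost without MyrC replicate 1 or 2 or vehicle replicate 2 (-0.41 to -0.34). It was also lost under both reduced totals described for TSR2 (-0.35 and -0.32). Of 11 factors that resolve stalled ribosomes 3 rose (27.3%) and 0 fell in each line (medians 0.21 in 23132/87 and 0.22 in SW48). The collision sensor ZNF598 had 34.4, 37.7 and 35.6 in 23132/87 MyrC cells, against 15.3, 16.9 and 12.9 in vehicle cells, a log2 change of 1.21 ± 0.12, and it rose by 0.78 ± 0.18 in SW48. PELO, the rescue factor that splits stalled ribosomes, rose by 0.61 ± 0.13 in 23132/87 and by 0.71 ± 0.17 in SW48, with the 23132/87 call lost when signals were scaled to the sum over the 82 genes (0.51). Of 26 genes of ribosome assembly and RNA polymerase I, 1 rose (3.85%) and 6 fell (23.1%) in 23132/87 (median -0.11) and 3 rose (11.5%) and 2 fell (7.69%) in SW48 (median 0.14). UTP20, of the small-subunit precursor, fell by 1.91 on the log2 scale in 23132/87, and RRP12, a nuclear export factor of both subunits, rose by 0.73 ± 0.11 in 23132/87 and by 0.85 ± 0.15 in SW48. UBTF, a factor of RNA polymerase I, fell by 0.57 on the log2 scale in SW48. This call was lost with signals scaled to the sum over the 82 genes (-0.38) and with the replicate block by column numbers (-0.43). Of 78 mitochondrial ribosomal proteins 2 rose (2.56%) and 38 fell (48.7%) in 23132/87 (median -0.32) and 3 rose (3.85%) and 23 fell (29.5%) in SW48 (median -0.25). The largest changes among them were those of MRPS6 and MRPL12 in 23132/87, which fell by 0.98 and 0.93, and of MRPL27 and MRPL11 in SW48, which fell by 1.05 and 1.00 on the log2 scale. Of 46 initiation factors 11 rose (23.9%) and 12 fell (26.1%) in 23132/87 (median 0.04), near the shares of all genes, and 6 rose (13.0%) and 4 fell (8.70%) in SW48 (median -0.06). EIF1, which guards start codon choice, rose by 0.93 ± 0.10 in 23132/87 and by 1.19 ± 0.15 in SW48. EIF5A2 fell by 0.83 on the log2 scale in 23132/87, and EIF2S2, a subunit of the factor that carries the initiator tRNA, rose by 1.02 ± 0.15 in SW48.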

How the data were processed

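Stranded mRNA libraries (TruSeq Stranded mRNA, per the labels' protocols) were read with FastQC and STAR and the build GRCh38, per the submitters' processing notes. The authors deposited 1 table per line of normalized expression signal per gene; no source used here gives its unit, the counting tool or the annotation. Each listed gene lies at 1 or more in all 6 libraries of its line, so genes low in either group are not seen. The SW48 MyrC columns carry other replicate numbers than the titles and were matched through the sample descriptions. Because the deposited values are not counts, the edgeR test planned for counts was replaced by the planned limma test.

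Tests ran on log2(signal + 1) for genes whose mean reached 1, which all listed genes did, with limma 3.58.1 (R 4.3.3), its trend option on. P-values were adjusted by Benjamini-Hochberg over the whole table (11070 genes in 23132/87, 11554 in SW48), every adjusted p printed comes from limma, and the scripts were tested on simulated data. For the line difference, the interaction of line and treatment was tested over 10252 genes with the same symbol and Ensembl identifier in both tables; 12 shared symbols with other identifiers were left out. The tables were listed separately, so levels were not compared between lines. Errors of changes are limma's moderated standard errors, and p-values measure the spread between 3 biological replicates. The genes and lists were chosen with earlier results of these data known. In each line the text names up to 6 called genes in each direction with the largest change, for the line difference up to 4, and 2 genes of each list. Always named are the stalk and 5S particle genes, the paralogs with their partners, RPSA, RPS6, RPS27A, RPL3 and RPS3. The other called genes, the RPS26 copies, LARP1, EEF2 in 23132/87 and the comparison genes beside them were named after their values were seen. A few genes that the rules name are left out of the text and remain in the counts. Start sites came from the RefSeq promoter table (GRCh38.p14), matched by symbol. Figures were drawn from the tables of results.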

Additional observations from a re-analysis of the deposited data

Results flagged for a closer look

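The change under MyrC differed between the lines for 4 ribosomal protein genes, by the line-by-treatment term of limma adjusted over 10252 genes. With the 23132/87 change subtracted from the SW48 change, the difference was 0.64 for RPS26 (-0.29 in SW48 and -0.94 in 23132/87), with all 6 MyrC libraries below the vehicle libraries of their line. It was 0.53 for RPL7L1 (0.22 in SW48 and -0.31 in 23132/87). It was -0.71 for RPS9 (-0.45 in SW48 and 0.25 in 23132/87). It was -0.60 for RPS25 (-0.26 in SW48 and 0.34 in 23132/87).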

How the results depend on the processing

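RPS26, RPL10 and RPS27L in 23132/87, RPL26L1 and RPL22L1 in SW48, and the line differences of RPS26 and RPS9 kept their call in each alternative run, and no called value changed sign. The losses given with single genes are not a full list. With the replicate block the calls of RPL10A, RPL28, RPL4, RPS13, RPL26L1 and TSR2 in 23132/87 were lost (adjusted p 0.051 to 0.132 by limma). So were those of RPS26, RPL24, EEF2 and TSR2 in SW48 (0.0678 to 0.0841). With the block by column numbers, those of RPS26, EEF2, TSR2, UBTF, RPS26P6 and RPS26P8 in SW48 were lost (0.0617 to 0.144). The 6 genes called higher in 23132/87 were 29 after quantile normalization (35.4%, against 22.4% of all genes) and 3 after median centring (3.66%, against 21.1%). They were 25 with the total without mitochondrial pseudogenes, 7SL and small nuclear RNA (30.5%, against 26.9%) and 26 with the total without ribosomal protein genes (31.7%, against 30.4%). They were 2 with the replicate block (2.44%, against 19.9%) and 1 to 35 leaving out single libraries (1.22% to 42.7%, against 18.1% to 22%). The 4 called lower there were 2 under each of those totals (2.44%, against 18.6% and 17.4%) and 10 with signals scaled to the sum over the 82 genes (12.2%, against 23.5%). They were 2 to 5 leaving out single libraries (2.44% to 6.10%, against 17.6% to 22.2%). In SW48 the 0 called higher were 1 after quantile normalization (1.22%, against 13.1%), 3 scaled to that sum (3.66%, against 17.4%) and 0 leaving out single libraries (against 6.65% to 11.5%). The 9 called lower were 14 after quantile normalization (17.1%, against 15.3%) and 4 with the total without ribosomal protein genes (4.88%, against 15.4%). They were 18 with a signal of at least 10 in 3 libraries (22%, against 26%) and 5 without the mean-variance trend (6.10%, against 18.7%). They were 2 scaled to that sum (2.44%, against 9.56%) and 14 with the replicate block by the column numbers (17.1%, against 15.2% of all genes). Leaving out single libraries gave 4 to 28 (4.88% to 34.1%, against 12.4% to 20.1%). For the line difference, the 2 higher in SW48 were 1 with the replicate block (1.22%, against 3.45%) and 1 to 2 leaving out single libraries (1.22% to 2.44%, against 3.57% to 5.85%). The 2 lower were 21 after quantile normalization (25.6%, against 5.89%) and 1 after median centring (1.22%, against 5.21%). Under the totals in the order above they were 18 (22%, against 7.46%) and 10 (12.2%, against 9.14%). They were 1 with the replicate block (1.22%, against 4.06%) and 1 scaled to the sum (1.22%, against 1.39%). Leaving out single libraries gave 1 to 30 (1.22% to 36.6%, against 4.54% to 8.08%). The causes were not tested. Scaling to the sum over the 82 genes and the block by column numbers were chosen after seeing the data. The former centres the 82 genes by construction. Scaling moved the median over all genes to 0.12 in 23132/87 with the total without ribosomal protein genes (0.01 as reported) and to 0.09 in SW48 with the sum over the 82 genes (-0.08 as reported).

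Same-numbered libraries did not deviate together (correlations -0.24, 0.11 and -0.27 in 23132/87, -0.07, -0.18 and -0.14 in SW48), not every library correlated best with its own number, and the numbers were not taken to pair the samples. By the numbers of the SW48 columns, which MyrC and vehicle share for 2 pairs alone, the correlations were 0.15 and 0.27, each the highest of its MyrC library, and whether these numbers mark a pairing is not given. DESeq2 was not run because the files hold no counts. Depth is unknown, and with 3 libraries a group, changes of the size seen in most of the 82 genes lie near the standard error (median 0.13 in 23132/87 and 0.12 in SW48).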

Other observations

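Pseudogenes of ribosomal protein genes were listed beside the genes themselves, 74 in 23132/87 and 89 in SW48. In 23132/87 6 of 74 rose and 3 fell (median log2 change 0.08, against 0.10 for the 82 genes), where 23.3% of all genes rose and 23.2% fell. In SW48 2 of 89 rose and 9 fell (median -0.19, as for the 82 genes), where 10.1% of all genes rose and 19.2% fell. Each of these counts was a smaller share than that of all genes. The summed RPL23A pseudogenes in 23132/87 reached 91.7% of the signal of RPL23A in MyrC cells and 83.6% in vehicle cells. In SW48 they reached 84.4% in MyrC cells and 86.5% in vehicle cells, the other direction.

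RPL38P4, a processed pseudogene of RPL38 at chr3:98525061-98525274 (minus strand, GRCh38), was listed in SW48 alone and was chosen after its values were seen. It had 238, 215 and 214 in SW48 MyrC cells, against 43.9, 33.8 and 54.3 in vehicle cells, a log2 change of 2.33 ± 0.15 (SE, adjusted p = 1.08e-05 by limma). RPL38 itself had 764, 729 and 966 in MyrC cells, against 1101, 902 and 958 in vehicle cells, with a log2 change of -0.27 ± 0.13 (adjusted p = 0.147 by limma). The annotation places the transcripts AC021660.3, on the same strand, and AC021660.2, on the other strand, over the same interval.

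With each library scaled to the sum over the 82 genes, which sets each gene against the others, 5 genes lay higher in 23132/87 (6.10%, against 11.8% of all genes) and 10 lower (12.2%, against 23.5%). In SW48 3 lay higher (3.66%, against 17.4%) and 2 lower (2.44%, against 9.56%). The scaling itself centres the 82 genes (median log2 change -0.01 in 23132/87 and 0.0003 in SW48) and shifts all genes (-0.09 and 0.09). A share of the 82 genes below that of all genes is in part set by this step and is not read as a result. RPL10 was higher in both lines on this scale, at 0.41 ± 0.11 in 23132/87 and 0.31 ± 0.10 in SW48 (SE, adjusted p = 0.00482 and 0.0293 by limma). RPL26L1 was lower in both, at -0.43 ± 0.16 in 23132/87 and -0.44 ± 0.13 in SW48 (adjusted p = 0.0417 and 0.0276). RPS26 was at -1.05 ± 0.12 in 23132/87 (adjusted p = 5.42e-07). This scaling was chosen after seeing the data.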
